A study of Mus musculus with 2 samples.

Results

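The 9 loci described here are mouse genes linked to Alzheimer disease through human genetics or through the biology of amyloid and tau: App, Psen2, Bace1, Mapt, Bin1, Sorl1, Apoe, Clu and Trem2. They were given by name, with no measured value in the rule. They are 9 of the 21938 protein-coding genes of GENCODE M21 on chromosomes 1 to 19, X and Y. Each locus is the annotated gene with 10 kb added on either side, on the mouse build mm10 (GRCm38). A promoter reaches 1000 bp to each side of any annotated start site of the gene.

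The measurement was DNase-seq, in which the enzyme DNase I cuts accessible DNA in nuclei and the cut ends are sequenced. It was made on hippocampal tissue from male B6CASTF1/J mice 14 days old, the F1 cross between the C57BL/6 and CAST/EiJ strains. There was 1 group with 2 biological replicates and no second condition, so no difference between conditions could be tested and all values are descriptions of these 2 libraries. The labels speak of 3 males, give both replicates the same donor identifier, call the tissue a layer of the hippocampus without naming the layer, and do not say whether each replicate pools the animals.

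Amyloid-beta peptide is cut from the App protein first by beta-secretase (Bace1) and then by gamma-secretase, of which the presenilins are the catalytic subunits. Mapt encodes tau, the microtubule protein that forms tangles. Bin1 and Sorl1 act in endocytosis and sorting, Apoe and Clu encode lipid-carrying secreted proteins made in brain largely by astrocytes, and Trem2 is a surface receptor of microglia. Active promoters and enhancers are usually open to DNase I, and a protein bound to open DNA can leave a short protected stretch, called a footprint.

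The deposited files held 115072 peaks for replicate 1 and 95711 for replicate 2, and 65.3% and 78.4% of them overlapped a peak of the other replicate by at least 1 bp; such peaks are called shared. Each peak carries a value from the authors whose unit is not stated. Its median was 0.594 in replicate 1 and 0.734 in replicate 2, so replicate 2 stands higher as a whole, and the SD between replicates holds that difference too. Read totals are not in these files and the depth of each library is unknown. All 12 neuron markers had a promoter peak in each replicate, against 7 of 10 for astrocyte, 5 of 10 for oligodendrocyte, 4 of 10 for microglia, 1 of 8 for liver and 1 of 8 for lymphocyte markers. In bulk tissue, fewer cells of a type and less open DNA per cell cannot be told apart.

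Sequences of the sites that the results below turn on are shown first. They are the reference (C57BL/6) sequence, 5′ to 3′, and the CAST/EiJ allele of these hybrid mice may differ from it. Capitals mark bases in a footprint of replicate 1 of which at least 50% was covered by a footprint of replicate 2. In the RefSeq table of promoters on GRCm38.p6, 5 of the 9 genes matched. The 4 with an open promoter are given on the minus strand, on which all 4 genes lie, with 250 bases before and 50 after the start: App (chr16:85173658-85173957), Psen2 (chr1:180256251-180256550), Apoe (chr7:19699139-19699438) and Sorl1 (chr9:42124248-42124547). Each overlaps a promoter peak of both replicates.
App promoter: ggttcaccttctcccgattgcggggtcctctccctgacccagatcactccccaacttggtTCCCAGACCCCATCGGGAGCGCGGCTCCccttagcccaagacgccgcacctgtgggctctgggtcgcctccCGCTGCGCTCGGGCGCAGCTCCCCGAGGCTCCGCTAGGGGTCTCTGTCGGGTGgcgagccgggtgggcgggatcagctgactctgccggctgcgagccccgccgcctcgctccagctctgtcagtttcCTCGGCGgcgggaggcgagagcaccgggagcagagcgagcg
Psen2 promoter: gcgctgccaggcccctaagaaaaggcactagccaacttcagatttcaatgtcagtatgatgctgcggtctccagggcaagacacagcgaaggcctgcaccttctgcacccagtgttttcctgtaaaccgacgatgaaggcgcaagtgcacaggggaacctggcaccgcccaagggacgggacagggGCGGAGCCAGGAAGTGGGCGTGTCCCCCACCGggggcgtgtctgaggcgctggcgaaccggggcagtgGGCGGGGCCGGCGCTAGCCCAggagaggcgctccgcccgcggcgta
Apoe promoter: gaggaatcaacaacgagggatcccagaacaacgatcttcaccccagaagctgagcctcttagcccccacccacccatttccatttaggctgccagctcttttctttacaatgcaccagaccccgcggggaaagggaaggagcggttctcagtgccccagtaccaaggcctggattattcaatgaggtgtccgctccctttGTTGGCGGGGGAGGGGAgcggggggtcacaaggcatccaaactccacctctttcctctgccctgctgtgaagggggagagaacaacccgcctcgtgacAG
Sorl1 promoter: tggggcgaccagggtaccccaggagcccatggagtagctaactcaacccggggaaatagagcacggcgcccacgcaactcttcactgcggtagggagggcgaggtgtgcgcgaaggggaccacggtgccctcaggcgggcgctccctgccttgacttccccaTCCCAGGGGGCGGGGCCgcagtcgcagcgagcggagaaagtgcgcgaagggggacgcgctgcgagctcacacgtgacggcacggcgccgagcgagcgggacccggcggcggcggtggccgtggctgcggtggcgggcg

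The other 3 sequences are shared peaks far from the start of their gene, on the plus strand of GRCm38: the site upstream of Psen2 (chr1:180268681-180268880), the intronic site near the 3′ end of App (chr16:84955521-84955760) and the site upstream of Trem2 (chr17:48336981-48337160).
Psen2 upstream site: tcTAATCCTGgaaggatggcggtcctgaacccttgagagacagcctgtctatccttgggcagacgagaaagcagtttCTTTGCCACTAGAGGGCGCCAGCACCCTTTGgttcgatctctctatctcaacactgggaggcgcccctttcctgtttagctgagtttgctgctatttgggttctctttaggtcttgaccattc
App intronic site: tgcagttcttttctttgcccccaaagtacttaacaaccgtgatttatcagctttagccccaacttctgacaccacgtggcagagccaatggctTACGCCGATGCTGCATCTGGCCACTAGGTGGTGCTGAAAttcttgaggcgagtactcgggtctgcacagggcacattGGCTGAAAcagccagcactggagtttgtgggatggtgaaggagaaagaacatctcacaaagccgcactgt
Trem2 upstream site: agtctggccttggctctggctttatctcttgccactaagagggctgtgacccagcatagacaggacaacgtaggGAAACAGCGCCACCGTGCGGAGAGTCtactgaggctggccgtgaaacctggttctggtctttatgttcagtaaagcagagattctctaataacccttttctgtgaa

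In the App promoter, 88 of 300 bases lay in 3 shared footprints, against 53 bases in 2 at Psen2, 19 bases in 2 at Apoe and 17 bases in 1 at Sorl1. The Sorl1 footprint contains GGGCGG whole, the letters known as a GC box, to which SP and KLF factors bind. At the Psen2 promoter both shared footprints hold part of a GGGCGG, and 1 of them holds GTGGGCG whole, a sequence EGR factors bind. GGGCGG was found on either strand of 35.7% of 32851 RefSeq promoters and GTGGGCG in 7.97%; the 2 patterns overlap wherever the letters GTGGGCGG stand. In the App promoter both patterns are present, overlapping each other, at bases outside the shared footprints. The Apoe promoter shown has no GGGCGG, and its longer shared footprint covers a G-rich stretch.

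The Psen2 upstream site carries CCACTAGAGGGC inside a shared footprint, which matches a core of the CTCF motif (CCACNAG followed directly by NNGGC, searched on both strands). CTCF is a zinc-finger protein known for anchoring chromatin loops. The core was searched for after these sequences had been read. Among the 33 shared peaks of the 9 loci that lay away from the promoter of any gene, it stood in the central 200 bp of 3, which is 9.09%, against 6.21% of 47593 such peaks in the genome. The 3 belong to Psen2, Mapt and Clu, and at Clu the core was in no shared footprint. The core also stood in a shared footprint, with 5 bp added either side, of an upstream peak of Bace1 (chr9:45829241-45829420). That peak lies at start sites of Cep164 and so is not among the 33. Only exact matches to the core were counted, and none stood in the App intronic site or the Trem2 upstream site. In the App intronic site, a stretch within a shared footprint matches the core at every base but the last. Inexact matches were not searched for, so whether these sites lack a CTCF motif cannot be decided from this search.

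In both replicates 8 of the 9 genes had a promoter peak, against 64.3% of all protein-coding genes. The exception was Trem2, which had a promoter peak in neither, as 32.1% of all genes did. The median over the 8 genes of the mean promoter value was 3.28, against 2.87 over the 14116 protein-coding genes open in this way. A gene with more annotated start sites has more places for a promoter peak, and the 9 genes had from 4 (Trem2 and Sorl1) to 12 (Psen2). The promoter shares and values over all genes, here and below, were not matched for that number. The ratio of replicate 2 to replicate 1 ran between 1.12 and 1.40 over the 8 genes with a median of 1.28, against a median of 1.25 over the 14116 genes. Every one of the 8 was therefore higher in replicate 2, as the typical open promoter was.

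**Figure D1:**
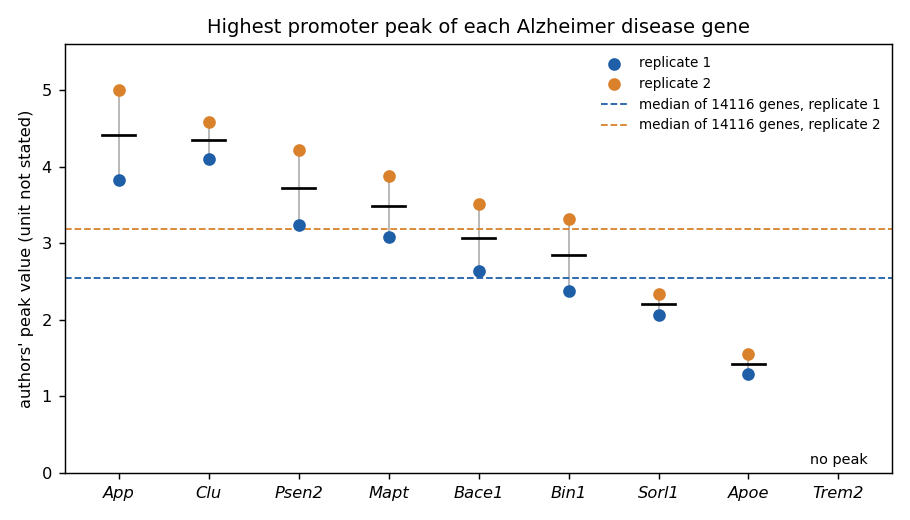
Highest promoter peak of each gene (x axis, in order of the mean) as the authors' peak value, unit not stated (y axis, linear from 0). Points are the replicates, short bars the mean of both, and dashed lines the median over 14116 open promoters in each replicate. App, Clu, Psen2, Mapt and Bace1 lie above the line of their own replicate in both, Sorl1 and Apoe below it in both, and Trem2 has no promoter peak.

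Among the genes of amyloid production, App, the precursor itself (chromosome 16, 84949685 to 85173766, minus strand), had the highest mean promoter value of the 9, at 3.826 in replicate 1 and 4.998 in replicate 2 (4.41 ± 0.829, SD, n = 2). In the replicates, 74.7% and 77.4% of open promoters had a lower value. A further 2 promoter peaks stood downstream of this one, at 1.17 and 1.26 in replicate 1 and 1.5 and 1.44 in replicate 2. The promoter of App was thus open over several adjacent peaks, with the highest over the start.

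Outside its promoters App had 8 shared peaks, all intronic, against a median of 5 over 2194 genes of like length (110 kb or more). In the authors' shorter peak list the count was 2, equal to the median of those genes there. The strongest lay 218 kb into the gene, in an intron near its 3′ end, at 1.88 in replicate 1 and 3.30 in replicate 2. This is the App intronic site printed above, and its value exceeded that of 88.5% of all peaks of replicate 1. The next were at 63.1 kb, with 0.849 and 1.15, and at 1.65 kb, with 0.955 and 0.872. The weak intronic peak 4.86 kb into App (0.559 and 0.717) lies within 1000 bp of a start site of Gm27295.

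Psen2, the gene of presenilin 2 (chromosome 1, 180227004 to 180263438, minus strand), had promoter values of 3.23 and 4.22 in replicates 1 and 2 (3.72 ± 0.695, SD, n = 2). The peak was not at the 5′-most annotated start, where no peak was listed, but 7.08 kb further on, at start sites inside the annotated gene. A start site of Gm31728 lies within 1000 bp of the same peak, so the value cannot be given to Psen2 alone. The site 5.35 kb upstream of the 5′-most start reached 3.54 and 3.91, about as high as the promoter. In replicate 1 this upstream peak was above the promoter peak and in replicate 2 below it. No other locus of the 9 had a site outside promoters with a mean so high, the next being the App intronic site at 2.59. The remaining shared peak of Psen2, in an intron 13.2 kb from the 5′-most start, had 1.02 and 1.25.

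Bace1, the beta-secretase gene (chromosome 9, 45838580 to 45864399, plus strand), had promoter values of 2.63 and 3.51 (3.07 ± 0.619, SD, n = 2), close to the median open promoter. It had 3 shared peaks outside its promoters, and 2 of these, about 9 to 10 kb upstream with 2.40 and 2.63 and with 1.30 and 1.56 in replicates 1 and 2, lay at start sites of Cep164, a gene of the centriole. The only shared peak inside Bace1 was intronic, 11.3 kb from the start, at 0.629 and 0.677.

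**Figure D2:**
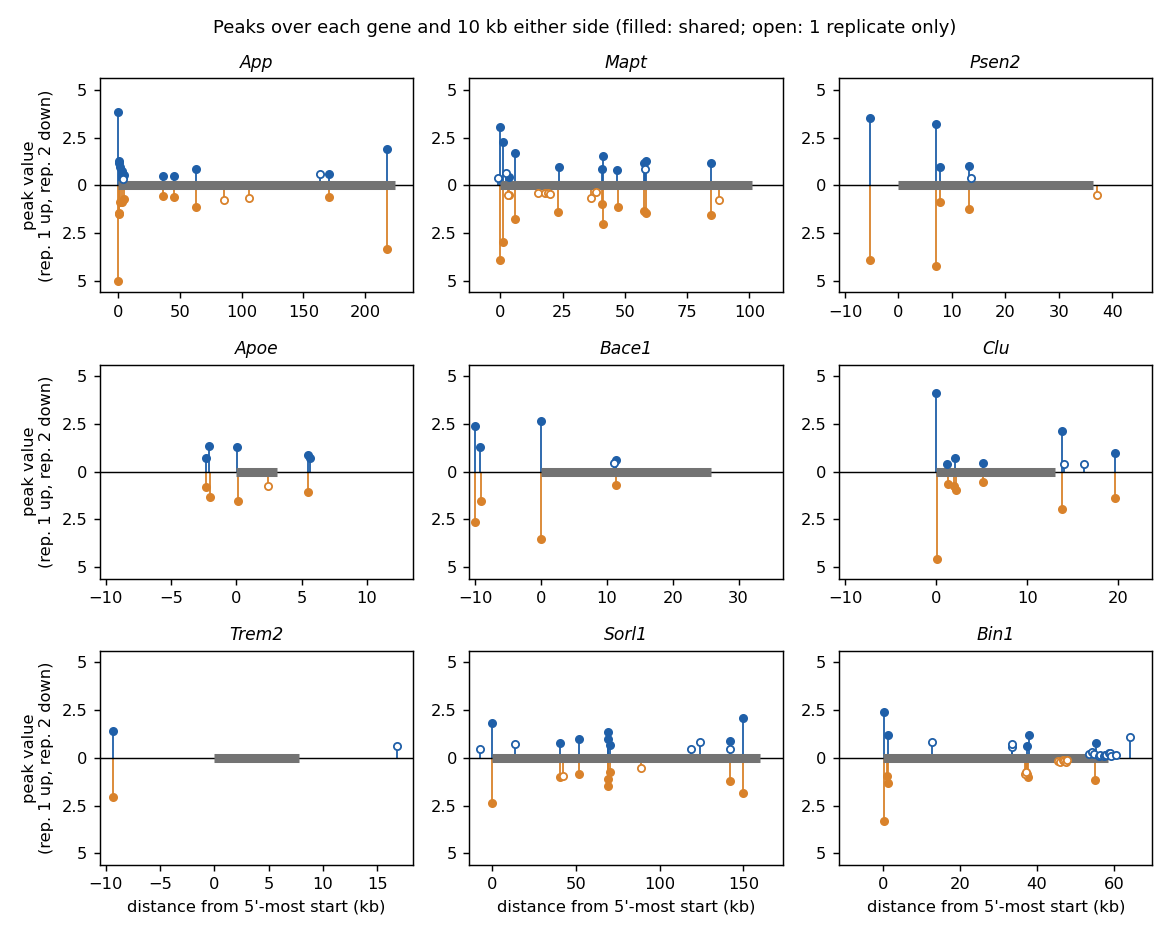
Peaks over the 9 loci by distance from the 5′-most annotated start in kb (x axis, transcription running rightwards) and the authors' peak value (y axis), with replicate 1 upwards in blue and replicate 2 downwards in orange. Filled points are shared peaks, open points peaks of 1 replicate, and the grey bar is the gene. The tall sites away from the start at Psen2 and App stand in both replicates, whereas the low open points near the 3′ part of Bin1 do not overlap between replicates.

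Mapt, the tau gene (chromosome 11, 104231390 to 104332090, plus strand), had the largest count of shared peaks outside promoters of the 9 loci. Its promoter stood at 3.08 and 3.88 in replicates 1 and 2 (3.48 ± 0.564, SD, n = 2), and a second promoter peak 0.971 kb downstream at 2.26 and 2.95. Beyond the promoters 9 peaks were shared, against a median of 2 among 2194 genes of 58.1 to 110 kb, and 96.3% of those genes had fewer. Merging peaks that overlap each other left 8 separate sites, as many as at App, and the shorter peak list had 6 shared peaks, against a median of 1. In order of mean value, the first 3 lay 41.1 kb into the gene, at 1.52 and 2.01, 6.03 kb in, at 1.70 and 1.78, and 84.5 kb in, at 1.20 and 1.55. The site at 84.5 kb is the one at Mapt with the CTCF core, which stood within a shared footprint.

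Mapt also had the most footprints of the 9 loci, with 51 in replicate 1 and 46 in replicate 2, of which 20 and 19 were shared, and 98.3% of genes of like length had fewer shared footprints. Of the footprints in its promoters, 10 of 20 in replicate 1 and 10 of 17 in replicate 2 were shared. Peaks of 1 replicate only were also present: 8 of the 17 peaks outside promoters in replicate 2 and 2 of 11 in replicate 1 had no partner.

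Bin1, an adaptor that binds and curves membranes (chromosome 18, 32377230 to 32435737, plus strand), had promoter values of 2.38 and 3.32 in replicates 1 and 2 (2.85 ± 0.666, SD, n = 2). The promoter peak also lies within 1000 bp of a start site of A830052D11Rik. Bin1 had 3 shared peaks outside promoters, against a median of 2 among genes of like length. In the shorter peak list the count was 1, equal to the median there. The 3 peaks of the longer list lay 37.4 kb in (0.644 and 0.832), 37.8 kb in (1.21 and 0.995) and 55.3 kb in (0.764 and 1.15).

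Bin1 also held clusters of weak unshared peaks. In replicate 1, 11 of its peaks with values of 0.0778 to 0.248 stood within 7.13 kb at the 3′ end of the gene and just beyond it (32430721 to 32437853), and in replicate 2, 6 peaks of 0.106 to 0.245 stood within 2.64 kb in the body of the gene (32422601 to 32425240). All of them were below the 10th percentile of their peak list, none overlapped a peak of the other replicate, and the other 8 loci had no peak so low. The share of all such weak peaks that overlaps the other replicate was not computed. The lack of overlap can therefore not be read as particular to Bin1. The false discovery rates of these weak Bin1 peaks were nonetheless low. Under the 11 peaks the lowest listed rate had a median of 2.94e-05, against 0.0135 over the 11152 such weak peaks of replicate 1, and 5 of the 11 were under 1e-05, against 2.97% of the weak peaks. Under the 6 peaks of replicate 2 the median was 1.62e-05, against 0.0122 over 9390 weak peaks, and 3 of the 6 were under 1e-05, against 7.07%. The shared Bin1 peak 55.3 kb in (32432381 to 32432580 in replicate 1) lies inside the stretch of the 11 peaks. Its lowest rate was 8.08e-22 at a value of 0.764 in replicate 1, against 0.000316 at 1.15 in replicate 2. The 11 peaks are not all separate sites, since those at 32435561 to 32436400 and 32435941 to 32436400 overlap. The part of any technical or local property of these stretches in the low rates was not tested.

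**Figure D3:**
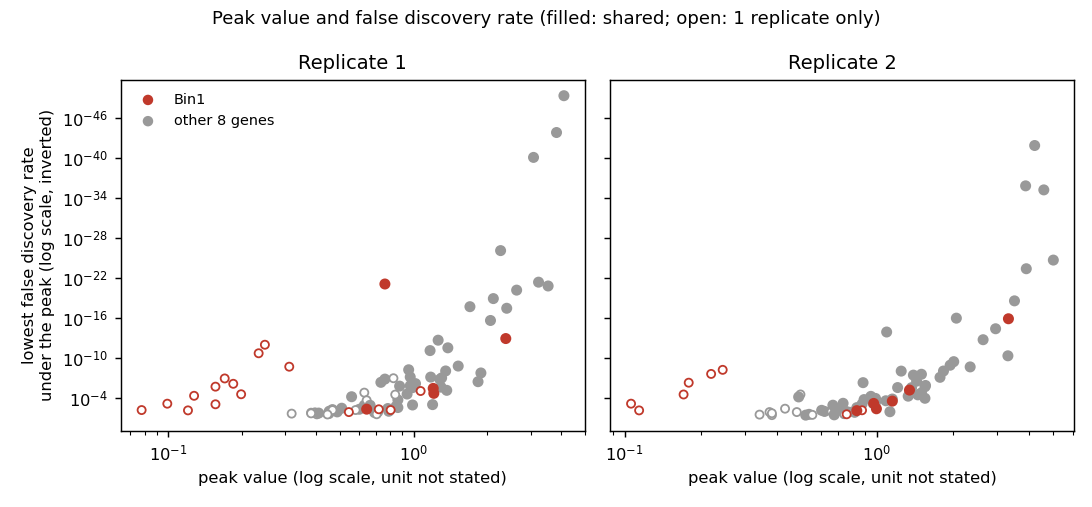
Authors' peak value (x axis, log scale) against the lowest false discovery rate of the cut rate listed under the peak (y axis, log scale, lowest rates at the top) for every peak of the 9 loci, by replicate. Red points are peaks of Bin1, grey points those of the other 8 genes, and open points peaks of 1 replicate only. The open red points at values of 0.0778 to 0.248 in replicate 1 and of 0.106 to 0.245 in replicate 2 have rates down to 1.07e-12 and 6.3e-09.

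Sorl1, a sorting receptor that carries App between compartments (chromosome 9, 41964720 to 42124297, minus strand), had highest promoter values of 2.06 and 2.34 in replicates 1 and 2. These came from different peaks. The peak at the 5′ start had 1.83 and 2.34, and the peak at an internal start site 150 kb into the gene had 2.06 and 1.83, so the order of the 2 promoters changed between the replicates. Sorl1 had 6 shared peaks outside promoters, against a median of 5 over genes of like length, and 54.1% of those genes had fewer. Of the 6, 2 overlap each other, which leaves 5 separate sites, and the shorter peak list had 2 shared peaks. Both equal the median of genes of like length counted in the same way. Its strongest lay in an intron 69.1 kb from the start, at 1.35 and 1.5.

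Apoe, the main apolipoprotein of brain (chromosome 7, 19696109 to 19699188, minus strand), had the lowest promoter value of the 8 open promoters, at 1.29 and 1.55 in replicates 1 and 2 (1.42 ± 0.180, SD, n = 2). Only 25.3% and 23.5% of open promoters had a lower one. A site 2.07 kb upstream was as high, at 1.37 and 1.33, and was joined by a weaker one 2.35 kb upstream, at 0.693 and 0.815. Apoe is 3.08 kb long and had 4 shared peaks outside its promoters in replicate 1, against a median of 1 over 2195 genes of like length, of which 91.3% had fewer. In the shorter peak list the count was 1, against a median of 0, and 58.1% of those genes had fewer. Of the 4, 2 lie downstream at a start site of Apoc1, the neighbouring apolipoprotein gene, and both overlap a single peak of replicate 2, in which the count was 3.

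Clu, the gene of clusterin, a secreted chaperone also called apolipoprotein J (chromosome 14, 65968483 to 65981547, plus strand), had a promoter as open as that of App, with 4.10 and 4.58 in replicates 1 and 2 (4.34 ± 0.340, SD, n = 2). In replicate 1 it was above App and in replicate 2 below it. Clu had 13 shared footprints in replicate 1 and 12 in replicate 2, and 91.6% of genes of like length had fewer. Outside its promoters Clu had 2 shared peaks in replicate 1, both downstream of the gene, 13.8 kb from the start (2.11 and 1.95) and 19.6 kb from it (0.969 and 1.37). In replicate 2 the count was 3, as an intronic peak of 0.522 overlapped a promoter peak of replicate 1. The site at 19.6 kb holds the CTCF core in its central 200 bp.

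Trem2 (chromosome 17, 48346401 to 48354147, plus strand) had no peak over its promoters or its body in either replicate, and no stretch with a false discovery rate under 0.05 was listed within its promoters. Its single shared peak was the upstream site printed above, 9.33 kb before the start, at 1.38 in replicate 1 and 2.06 in replicate 2. A peak 16.8 kb downstream of the start, at 0.644, was in replicate 1 only. Tyrobp, which encodes the adaptor through which Trem2 signals, likewise had a promoter peak in neither replicate. Of the microglial marker genes, C1qc had promoter values of 1.38 and 1.75 and Csf1r 0.834 and 0.840, Cx3cr1 and P2ry12 had a peak in replicate 1 only (0.417 and 0.410), and C1qa and C1qb had none.

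In order of mean value the promoters ran App, Clu, Psen2, Mapt, Bace1, Bin1, Sorl1 and Apoe. Adjacent genes overlapped in their replicate values down to Bin1. The values of Bin1 and Sorl1 did not overlap, nor did those of Sorl1 and Apoe. Within each single replicate the order was the same but for App and Clu. These differences were not tested, since 2 replicates leave too little to estimate their error.

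All 9 loci had at least 1 shared peak outside promoters, against 66.1% of all protein-coding genes, and the total was 38 in each replicate, out of 68 in replicate 1 and 59 in replicate 2. The 66.1% is over genes of every length, and long genes seldom lack such a peak. Among genes of like length, 6.06% had none for App and Sorl1, 17.0% for Mapt and Bin1 and 24.1% for Psen2. The share with none was 31.2% for Bace1, 32.9% for Clu, 48.1% for Apoe and 48.5% for Trem2. By place, 24 of 41 intronic, 6 of 7 upstream, 4 of 11 downstream and 4 of 7 exonic peaks of replicate 1 were shared, and neither of 2 further exonic peaks that touch an untranslated region. Over all protein-coding genes 69.3% of upstream peaks of replicate 1 were shared, and the upstream peaks of Bace1 lie at start sites of Cep164. For intronic, downstream and exonic peaks no such share was computed. Of the promoter peaks 94.4% in replicate 1 and 94.7% in replicate 2 were shared, against 81.4% and 85.2% over the promoters of all protein-coding genes. Over the loci, 64.0% of all peaks in replicate 1 and 71.8% in replicate 2 were shared, against 65.3% and 78.4% over the genome.

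**Figure D4:**
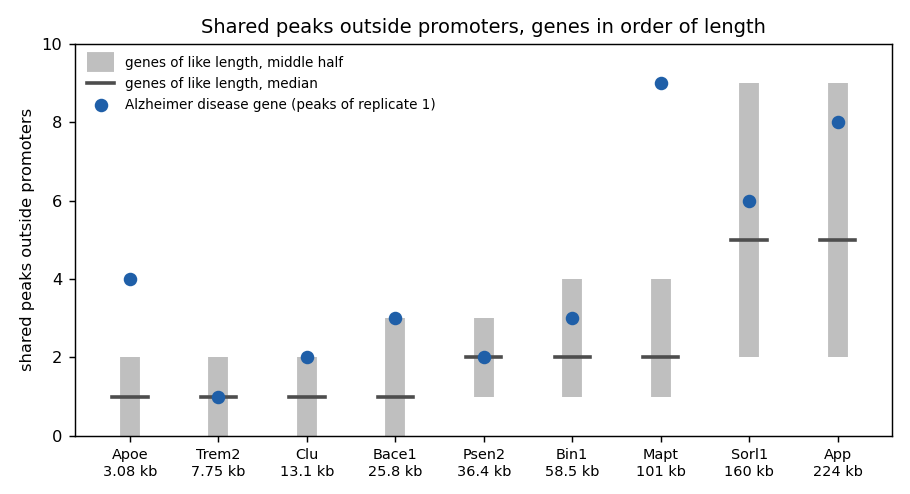
Number of shared peaks outside promoters (y axis, counted in replicate 1) at each gene, with genes in order of length (x axis, kb). Blue points are the 9 genes, dark bars the median and grey boxes the interquartile range over genes of like length. Mapt, with 9, and Apoe, with 4, lie above the box, and the other 7 genes lie within it.

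Shared footprints in promoters were found at 8 of the 9 genes, all but Trem2, against 58.2% of all protein-coding genes. Over the 9 loci 75 of 221 footprints of replicate 1 (33.9%) and 73 of 176 of replicate 2 (41.5%) were shared, against 31.8% and 37.5% of all footprints. Within the promoters of the 9 genes the shares were 42.5% and 52.2%, against 42.7% and 42% in the promoters of all protein-coding genes. GGGCGG, with 5 bp added either side of a footprint, stood in 10.7% of the 75, at Bin1, Mapt, Psen2 and Sorl1, against 11.4% of all shared footprints, which is close to it.

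The other genes of these pathways were mostly open too. In 5 lists with 69 genes, chosen with earlier results of these data known, 62 genes (89.9%) were open in both replicates at a promoter, against the 64.3% of all genes. Start sites of neighbouring genes inside these promoters were not separated. The APP processing list had 14 of 15, with a median promoter value of 4.02. It was led by the App homologue Aplp2 (4.51 and 6.41 in replicates 1 and 2), the reticulon Rtn3, which binds Bace1 (4.03 and 5.98), and Adam17, a protease that can act as an alpha-secretase (4.65 and 5.16). Ide, the insulin-degrading protease that also degrades amyloid-beta, had a promoter peak in neither replicate.

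All 12 genes of the lipid and lipoprotein list were open, with a median of 2.71, led by the liver X receptor genes Nr1h3 (5.08 and 6.73) and Nr1h2 (3.40 and 4.45) and by the lipid transporter Abca7 (3.94 and 4.78). Apoe, at 1.42, stood above only Apoc1 (0.978) and Lpl (1.09) when set beside that list. The endocytosis and sorting list had 13 of 14 open, with a median of 2.84. Its highest values were those of the dynamin Dnm2 (7.63 and 8.97), Rab5a, a GTPase of early endosomes (5.74 and 6.38), and the retromer subunit Vps35 (4.78 and 6.04), and Cass4 had none.

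All 15 genes of the tau and cytoskeleton list were open, with a median of 4.30. The tau kinase Gsk3b had 7.18 and 7.55, the microtubule-affinity kinase Mark2 5.97 and 6.66 and the microtubule protein Map4 5.31 and 6.42. The immune risk list differed in level, with 8 of 13 open, near the share of all genes, and a median value of 0.756. Its highest were the complement receptor-like gene Cr1l (2.68 and 3.95), the progranulin gene Grn (3.00 and 3.23) and the phosphatase Inpp5d (0.884 and 0.864). Tyrobp and the adaptor Abi3 were among the 5 with a promoter peak in neither replicate, as was Trem2, which stands in the microglia marker list instead.

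**Figure D5:**
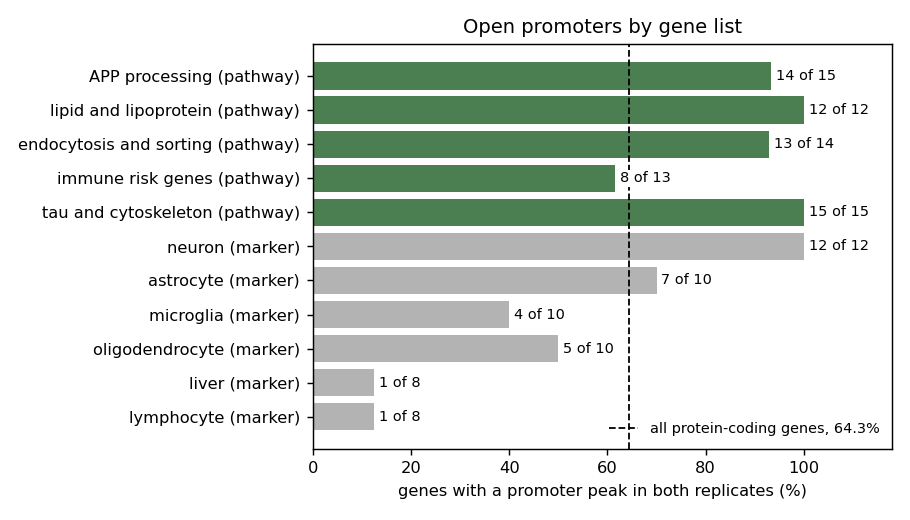
Genes open at a promoter in each replicate, as a share of the list (x axis, percent) for the 5 pathway lists in green and the 6 cell type marker lists in grey, with the number of genes beside each bar. The dashed line is the share over all protein-coding genes, 64.3%. The immune risk list, at 8 of 13, lies just below the line and the other 4 pathway lists above it.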

How the data were processed

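DNase-seq peaks, footprints and false discovery rates of the cut rate were read from 2 replicates of 1 group. Per the file headers and descriptions the files are on mm10 and each comes from 1 library; the aligner and the program that called peaks are not given in the sources used. The signal value of each peak was deposited by the authors with no stated unit or normalization. The deposited p-value columns are false discovery rates, listed under 0.05 for cut rate stretches and 0.01 for every footprint. Of the 2 peak lists per replicate the longer was used.

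Genes came from GENCODE M21. Overlaps were computed in Python 3.11.15 with numpy 2.4.6 and pandas 2.3.3, and tested on simulated intervals with known answers. A gene's promoter value is its highest promoter peak per replicate. Peaks were shared if they overlapped by 1 bp, footprints if 50% of the length was covered. Genes of like length are those in the same of 10 length groups. Sequences were read with samtools 1.23.1 and searched for 22 motifs and 1 added CTCF core. No test was run. The rule for naming genes of a list took the 3 highest by mean promoter value at most, 2 at most with no peak, and any with a peak in 1 replicate; some genes it takes are left out of the text. The genes, lists and motifs were chosen with earlier results of these data known.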

Additional observations from a re-analysis of the deposited data

How the results depend on the processing

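The number of genes with an open promoter stayed at 8 under promoter windows of 500 and 2500 bp, the shorter peak list, only peaks at or above the list median, start sites of protein-coding transcripts, and each replicate alone; that of pathway genes ran between 56 and 64 over its alternatives, with 62 in each replicate alone. The count of 38 shared peaks outside promoters became 19 in the shorter list and 67 with 50 kb either side, and was 28 to 33 under the other 4 alternatives; merging overlapping peaks, chosen after seeing the data, left 35 sites. With 1 replicate left out, and so with no sharing required, it was 59 to 68. The 75 shared footprints became 6 when both ends had to be identical, against 50 to 94 under the other alternatives, and 176 to 221 with 1 replicate left out. The median promoter value of 3.28 ran between 2.86 and 3.69 with 1 replicate left out and became 4.92 in units of the list median, a change of scale. Of the 68 alternatives for single genes and the CTCF core, 11 moved the value beyond the replicate spread or a count beyond 1.5 times, and the shorter list moved the peak counts of App, Apoe, Sorl1 and Bin1. The 68 include the promoter values of 8 genes with each replicate left out. Leaving out 1 of 2 replicates always shifts the mean by less than their SD. Those alternatives could therefore not come out as moved and say nothing about how stable the values are. The longer CTCF pattern left 1 site in place of 3. No paired analysis was possible because the series has 1 group. Depth is unknown, so an unlisted peak may be one not detectable in these libraries.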

Other observations

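CpG content differed among the open promoters of the 9 genes. In the 300 bases around the highest promoter peak of replicate 1, the ratio of observed to expected CpG was 1.07 at Mapt, 0.828 at Bin1, 0.821 at Psen2 and 0.800 at App, against a median of 0.807 over protein-coding genes open at a promoter in each replicate. It was 0.477 at Clu, 0.392 at Apoe, 0.361 at Bace1 and 0.302 at the internal start of Sorl1. The RefSeq promoter at the 5′ start of Sorl1, which had the higher peak in replicate 2, had a ratio of 0.963, so the 2 promoters of Sorl1 lie on opposite sides of the median. Clu, with a low ratio, had a promoter value of 4.34, next to that of App, and Apoe, with a similar ratio, had 1.42.

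Some genes of the marker lists had a promoter peak in 1 replicate only. Among these were the astrocyte genes Aqp4 (0.361 in replicate 1) and Fgfr3 (0.954 in replicate 2), the myelin gene Mbp (1.16 in replicate 2), the liver gene Ttr (0.783 in replicate 2), which choroid plexus also expresses, and the lymphocyte gene Cd8a (0.262 in replicate 1). The liver gene Alb had weak promoter peaks in both, at 0.156 and 0.220, values like those of the unshared Bin1 peaks.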
